A study of Mus musculus with 3 samples.

Results

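The insulin-like growth factor (IGF) genes described here were Igf1 and Igf2 with the neighbouring non-coding RNA H19, the receptor gene Igf1r, and the binding protein genes Igfbp2 to Igfbp7. They were chosen by their symbols, which gave 10 genes of the 31053 listed. Each was followed in mesenchymal cells, taken as cells with at least 1% of UMIs from Col1a1, Col1a2 and Col3a1 together, and in macrophages, taken as cells below 1% with a UMI of Csf1r or Adgre1. UMIs are tags that mark captured RNA molecules, so copies made by amplification count once.

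The cells came from ectopic masses of outbred CD1 mice, taken 5 days after implantation and profiled with 3' droplet sequencing. In the antibody group the implant was Matrigel, a basement membrane gel, with recombinant human BMP2, a factor that induces cartilage and bone, and the mice received a neutralizing antibody against activin A. In the IgG group the same BMP2 implant was combined with pre-immune IgG, and in the Matrigel group the gel was implanted alone. Each group had 1 library, so there was no replicate and no test, and the values compare libraries. The Matrigel label names no IgG. In the comparison with Matrigel the factor and the IgG therefore cannot be told apart. The sources used here do not say how many mice a library came from. The main comparisons, antibody over IgG and IgG over Matrigel, share the IgG library. Antibody over Matrigel is given only for classes of mesenchymal cells, and there the factor and the antibody cannot be told apart. Levels are CPM, the UMIs of a gene in the summed cells scaled to a common total. Because 3' sequencing counts 1 tag per molecule, levels of different genes were compared directly on the CPM scale, with no division by gene length. All intervals are 95% intervals and cover counting error only, not variation between mice, implants or preparations.

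The libraries held 38163880, 46317250 and 44252421 UMIs in the antibody, IgG and Matrigel groups, in 6113, 6065 and 9249 barcodes. At most 19 barcodes were shared between any pair of libraries. Mesenchymal cells numbered 592 with the antibody, 1478 with IgG and 1982 with Matrigel alone, with median depths of 19186.5, 17191 and 8752.5 UMIs. Macrophages numbered 3040, 3115 and 5564 in the same order. All 8 mesenchymal markers were at or above 20 CPM in the mesenchymal cells of each library, and all 6 macrophage markers were in the macrophages. The 6 macrophage markers summed to between 113 and 192 CPM in mesenchymal cells, and their part in the results was not tested. The 3 chondrocyte markers Col2a1, Acan and Col9a1 summed to 605, 2847 and 0.106 CPM in the mesenchymal cells of the antibody, IgG and Matrigel libraries.

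IGF1 and IGF2 are secreted growth factors that act through the receptor encoded by Igf1r. The IGF binding proteins hold these ligands outside the cell and can restrain or prolong their action, while IGFBP7 binds IGFs only weakly. H19 is an imprinted non-coding RNA, expressed from the maternal copy of the locus it shares with Igf2. In skeletal tissue the IGFs are known as growth factors for cartilage and bone cells, and macrophages are a known local source of IGF1.

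The promoter stretches are those of Igfbp5 and Igfbp6, whose levels differed most between IgG and Matrigel mesenchymal cells and in the same direction, and of Igfbp4, the main binding protein transcript of the macrophages. Each is the 250 bases before the start that RefSeq lists on GRCm38.p6, which is the mm10 build, written 5′ to 3′ on the strand of the gene, with matches to TATAA on either strand in capitals. Igfbp5 lies at chr1:72874866-72875115 on the minus strand, Igfbp6 at chr15:102143936-102144185 on the plus strand and Igfbp4 at chr11:99040994-99041243 on the plus strand.
Igfbp5: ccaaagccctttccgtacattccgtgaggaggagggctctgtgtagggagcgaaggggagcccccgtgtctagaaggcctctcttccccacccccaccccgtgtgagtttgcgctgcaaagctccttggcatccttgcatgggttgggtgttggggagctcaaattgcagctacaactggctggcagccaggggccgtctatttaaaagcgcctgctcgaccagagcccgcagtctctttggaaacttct
Igfbp6: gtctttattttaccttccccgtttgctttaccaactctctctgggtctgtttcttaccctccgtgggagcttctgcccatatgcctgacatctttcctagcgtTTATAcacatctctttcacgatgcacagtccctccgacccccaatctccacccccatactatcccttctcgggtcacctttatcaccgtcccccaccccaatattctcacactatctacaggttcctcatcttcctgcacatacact
Igfbp4: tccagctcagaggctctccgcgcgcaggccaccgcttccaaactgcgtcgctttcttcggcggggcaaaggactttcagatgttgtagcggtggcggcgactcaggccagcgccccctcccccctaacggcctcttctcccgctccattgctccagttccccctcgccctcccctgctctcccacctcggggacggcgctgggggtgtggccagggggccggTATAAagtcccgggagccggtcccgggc
The window of Igfbp6 ends 176 bases before the start that GENCODE gives, while the window of Igfbp5 holds the first 19 bases of the gene as GENCODE gives it. Igfbp6 held 1 match to TATAA, on the strand opposite to the gene, and Igfbp4 held 1 on its own strand, while Igfbp5 held none, against 23.5% of the 27025 promoters of this length with at least 1 match. Igfbp6 also held 1 match to CAGAC, found in 42.1% of promoters. The other motifs searched on both strands had no match in these 3 windows. They were GGCGCC with matches in 9.54% of all promoters, GTCTAGAC with 0.174%, TGANTCA with 6.87% and CACGTG with 6.05%. Such a match is a description of letters only.

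In the mesenchymal cells of the IgG library, Igfbp5 and Igfbp6 were far lower than in the Matrigel library, Igf1, Igfbp2 and Igfbp4 were lower too, and H19 was higher. In the antibody library Igfbp5 and Igfbp6 stood between the other libraries, while Igf1, H19, Igfbp2, Igfbp3 and Igf1r had their lowest level of the 3 there. Igfbp7 was the most abundant binding protein transcript of the antibody and IgG libraries and Igfbp6 that of the Matrigel library. Over all mesenchymal cells, fewer cells of a kind and less RNA per cell cannot be told apart.

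**Figure D1:**
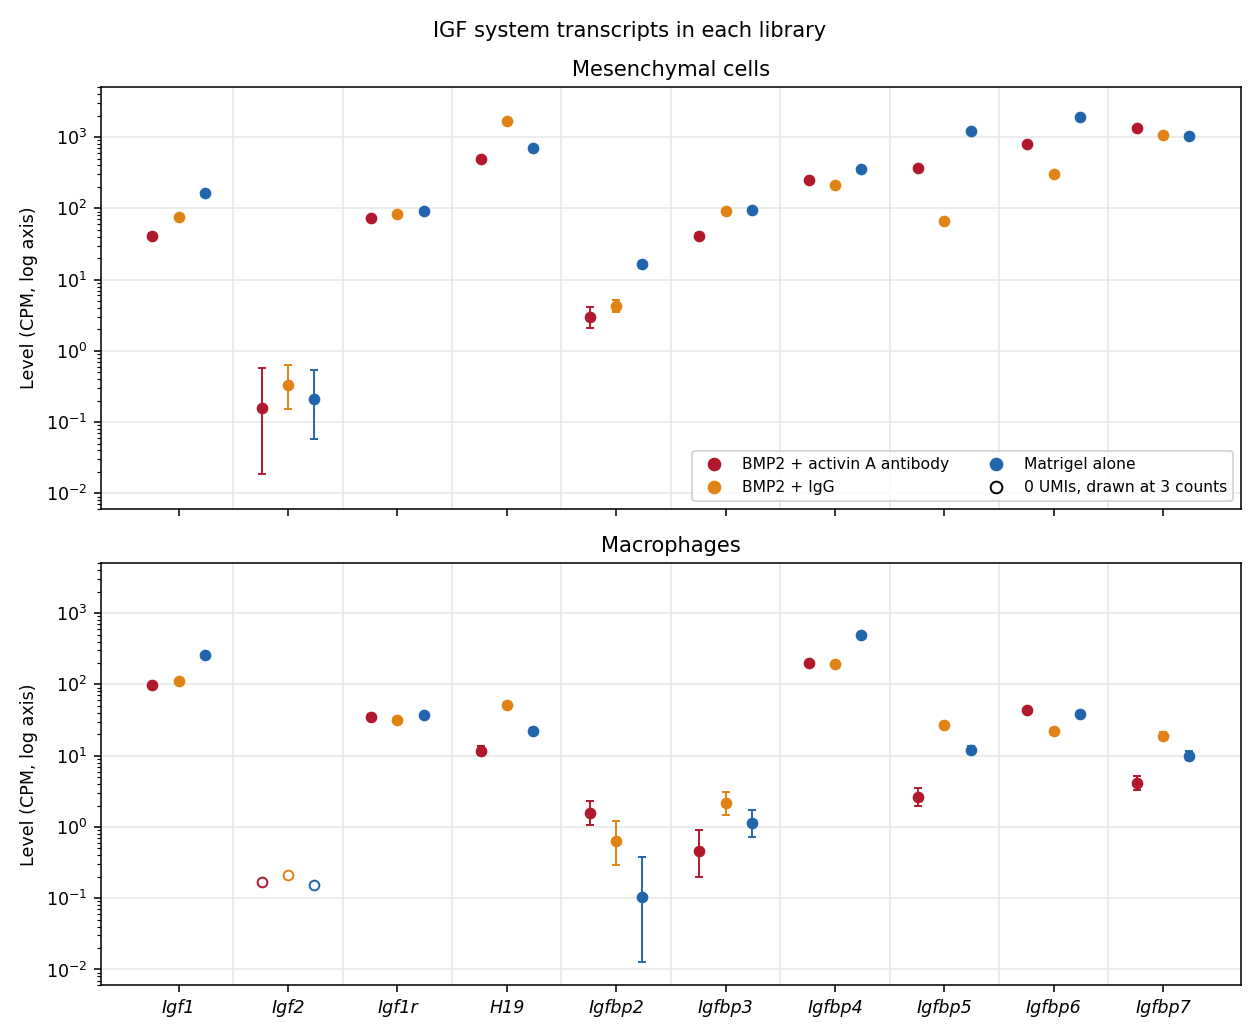
CPM (log axis) of the 10 genes in mesenchymal cells (upper panel) and macrophages (lower panel) of the 3 libraries. Points are single libraries, bars are exact Poisson 95% intervals and open points mark genes with 0 UMIs, drawn at the level of 3 counts. In mesenchymal cells Igfbp5 stood at 363, 65.7 and 1219 CPM in the antibody, IgG and Matrigel libraries.

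Of the ligands, Igf1 stood at 40.9 CPM (37.4 to 44.5) in antibody cells, 74.97 CPM (71.7 to 78.3) in IgG cells and 162 CPM (156 to 168) in Matrigel cells. The 3 intervals did not overlap. Antibody over IgG was 0.545 (0.494 to 0.6004) and IgG over Matrigel 0.463 (0.437 to 0.490). Without the Igf1 UMIs of the 10 cells with most of them in each library, and with totals unchanged, antibody over IgG was 0.362. Those cells held 43.2% of mesenchymal Igf1 UMIs with the antibody and 14.5% with IgG. Igf2 was almost undetected, with 2, 9 and 4 UMIs in all mesenchymal cells of the antibody, IgG and Matrigel libraries, and with 0 UMIs in the macrophages of each. A count of 0 allows up to 3 UMIs. For Igf2 no ratio is given.

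H19 was abundant although its neighbour Igf2 was not. The genes are 72622 bases apart on chromosome 7. H19 stood at 494 CPM in antibody cells, 1682 CPM in IgG cells and 705 CPM in Matrigel cells, which makes antibody over IgG 0.294 (0.286 to 0.302) and IgG over Matrigel 2.39 (2.34 to 2.43). Without the mesenchymal cells high in Col2a1 and Acan, IgG over Matrigel was 1.39 and no longer reached 1.5.

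The receptor gene Igf1r varied little between the libraries, at 72.2 CPM (67.6 to 77.0) in antibody cells, 83.6 CPM (80.2 to 87.1) in IgG cells and 90.8 CPM (86.5 to 95.2) in Matrigel cells. Antibody over IgG was 0.863 (0.799 to 0.933) and IgG over Matrigel 0.921 (0.865 to 0.981). Both ratios lay within 1.5-fold, and the intervals of the IgG and Matrigel libraries overlapped.

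Among binding proteins, Igfbp5 stood at 363 CPM (352 to 373) in antibody cells, 65.7 CPM (62.7 to 68.9) in IgG cells and 1219 CPM (1203 to 1235) in Matrigel cells. Antibody over IgG was 5.52 (5.22 to 5.83), and the IgG library was 18.5-fold lower than the Matrigel library, a ratio of 0.0539. Without the Igfbp5 UMIs of the 10 cells with most of them in each library, and with totals unchanged, these ratios were 8.71 and 0.0261. Those cells held 28.0%, 54.4% and 5.83% of mesenchymal Igfbp5 UMIs in the antibody, IgG and Matrigel libraries. The IgG level thus lost the largest share. Igfbp6 followed the same order, with 807, 302.5 and 1922 CPM, an antibody over IgG ratio of 2.67 (2.59 to 2.75) and a level 6.35-fold lower in IgG than in Matrigel cells. IGFBP6 is known to prefer IGF2 over IGF1 as a ligand.

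Igfbp4 was at 249 CPM (241 to 258) in antibody cells, 214 CPM (209 to 220) in IgG cells and 354 CPM (346 to 363) in Matrigel cells. IgG over Matrigel was 0.605 (0.584 to 0.627), and 0.732 without the cells high in Col2a1 and Acan. Antibody over IgG was 1.16 (1.11 to 1.21) and lay within 1.5-fold. Igfbp3, in blood the main carrier of IGFs, was at 40.7, 91.1 and 94.0 CPM in the antibody, IgG and Matrigel libraries. Its antibody over IgG ratio was 0.447 (0.406 to 0.491), and 0.271 without the 10 cells with most Igfbp3 UMIs, while the intervals of the IgG and Matrigel libraries overlapped. IgG over Matrigel was 0.969, and 0.582 without the cells high in Col2a1 and Acan.

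Igfbp7 ranged least among the binding proteins, at 1330, 1080 and 1038 CPM in the antibody, IgG and Matrigel libraries. Its ratios were 1.23 for antibody over IgG and 1.04 for IgG over Matrigel. Igfbp2 was the lowest binding protein transcript, at 2.98, 4.27 and 16.4 CPM, with overlapping intervals for the antibody and IgG libraries. It was found in 1.18% of antibody, 1.69% of IgG and 2.47% of Matrigel mesenchymal cells. Igfbp2 and Igfbp5 are neighbours on chromosome 1, with 5457 bases between them.

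Genes with at least 10 UMIs in either library were measured, which left 9 of the 10 genes, all but Igf2, and a 1.5-fold ratio counted as higher or lower. For antibody over IgG, 2 of the 9 were higher, against 9.90% of the 14009 genes measured, and 3 were lower, against 12.7%. For IgG over Matrigel, 1 was higher, against 16.6% of 14339 genes, and 5 were lower, against 21.1%. The median log2 ratio of the 9 genes was -0.21 for antibody over IgG and -0.72 for IgG over Matrigel, beside -0.07 and -0.03 over all genes measured.

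**Figure D2:**
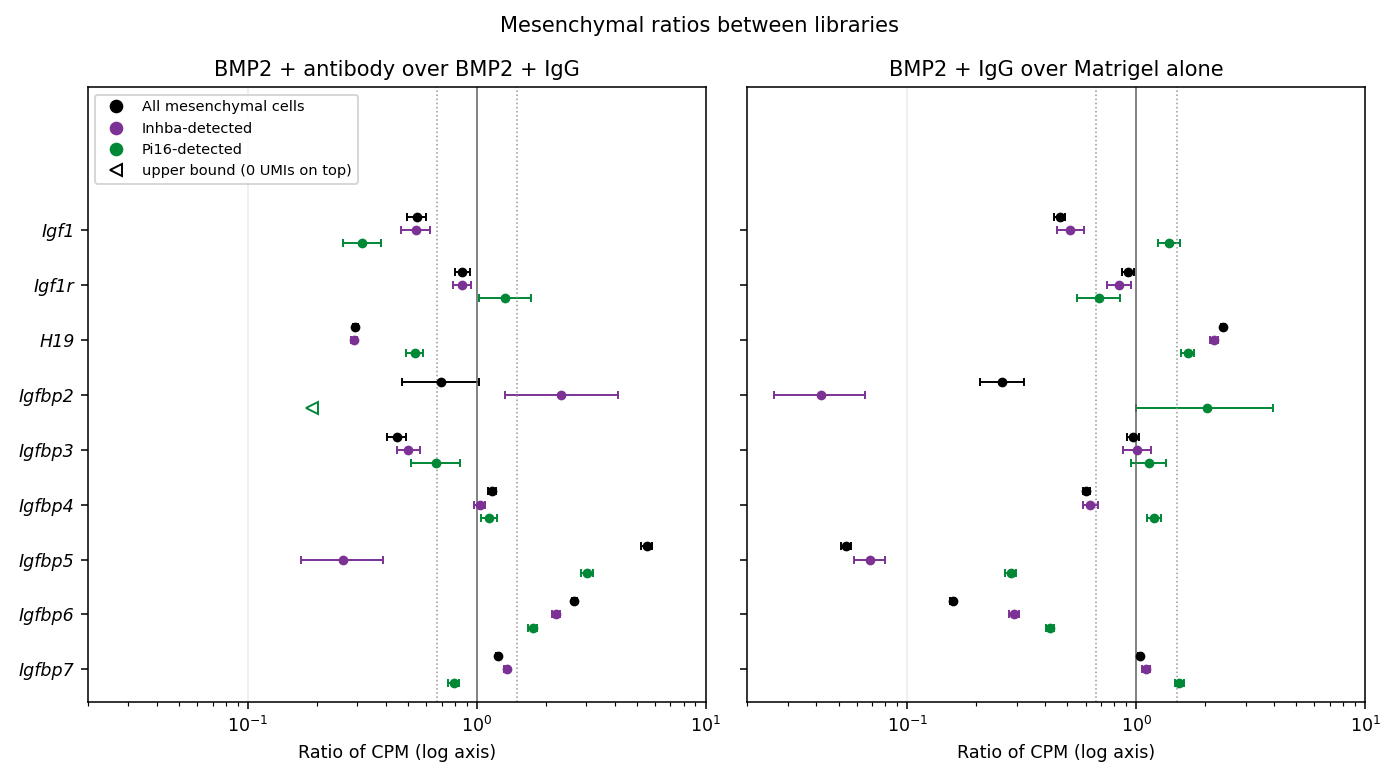
Ratios of CPM (log axis) for 9 genes in all mesenchymal cells and in those with Inhba or Pi16 alone detected, antibody over IgG on the left and IgG over Matrigel on the right. Bars are exact conditional binomial 95% intervals, dotted lines mark 1.5-fold and the open triangle an upper bound. Igfbp6 was higher in the antibody library in each class, with ratios of 2.67, 2.21 and 1.75.

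The mesenchymal cells were divided by detection of Inhba, which encodes the activin A subunit, and Pi16, a marker of fibroblast progenitors. Cells with Inhba and no Pi16 numbered 333, 1044 and 183 in the antibody, IgG and Matrigel libraries, and those with Pi16 and no Inhba numbered 169, 137 and 1050. Cells with both numbered 16, 42 and 45, and those with neither 74, 255 and 704. Median depth differed between the classes, at 26327, 18700 and 13791 UMIs in Inhba-detected cells and 12195, 13084 and 7909 UMIs in Pi16-detected cells of the antibody, IgG and Matrigel libraries. The part of depth in these divisions was not tested beyond detection after thinning each cell to 1000 UMIs.

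Igfbp5 lay mainly in the Pi16-detected cells. In the antibody library it was at 3.06 CPM (2.03 to 4.42) in Inhba-detected cells and 2115 CPM (2053 to 2177) in Pi16-detected cells. In the IgG library the values were 11.7 and 700 CPM, and in the Matrigel library 171.5 and 2474 CPM, so that Inhba-detected cells were 691-fold, 59.7-fold and 14.4-fold lower. Pi16-detected cells held 97.4%, 75.1% and 89.3% of all mesenchymal Igfbp5 UMIs in the antibody, IgG and Matrigel libraries. The share of cells with an Igfbp5 UMI was 5.41%, 5.27% and 40.4% among Inhba-detected cells and 82.8%, 43.8% and 78.6% among Pi16-detected cells. After thinning to 1000 UMIs the shares were 0%, 0.960% and 9.29% against 60.7%, 23.4% and 59.7%.

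Igfbp6 was also lower in Inhba-detected than in Pi16-detected cells, at 459 against 2478 CPM with the antibody, 207 against 1414 CPM with IgG and 711 against 3356 CPM with Matrigel alone. Igfbp4 had Inhba over Pi16 ratios of 0.304, 0.334 and 0.636, and Igf1 had ratios of 0.359, 0.208 and 0.561. H19 ran the other way in the IgG and Matrigel libraries, at ratios of 2.42 and 1.86, and stayed within 1.5-fold in the antibody library at 1.32. Without cells high in Col2a1 and Acan the antibody ratio was 0.859 and the IgG ratio 1.48, and the Matrigel ratio was 1.12 with detection after thinning. Without the H19 UMIs of the 10 cells with most of them in each class, the ratios were 2.87, 7.05 and 1.47 in the antibody, IgG and Matrigel libraries. The same number of cells was taken from classes of unequal size. These cells held 32.3%, 6.35% and 35.8% of H19 UMIs in Inhba-detected cells. In Pi16-detected cells they held 68.9%, 67.8% and 18.8%. The direction of the shift therefore depends on class size, and nothing is read from it. Igfbp7 was within 1.5-fold in each library, at 1.21, 0.713 and 0.995. The ratio of Igfbp2 was at least 2.10 in the antibody library, where Pi16-detected cells had 0 UMIs, 0.171 with IgG and 8.33 with Matrigel alone.

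Of the 9 genes, 1 was higher and 4 were lower in Inhba-detected cells of the antibody library, against 25.9% and 20.4% of genes measured. In the IgG library 2 were higher and 5 lower, against 17.7% and 21.5%. The higher genes there were H19 and Igf1r. Igf1r had ratios of 1.065, 1.638 and 1.341 in the antibody, IgG and Matrigel libraries. In the Matrigel library 2 were higher and 4 lower, against 15.8% and 19.4%. Igf1, Igfbp4, Igfbp5 and Igfbp6 were lower in each library. In the Matrigel library Igf1 became 0.780 with each cell weighted equally, and Igfbp4 became 0.726 with detection after thinning. Neither was then past 1.5-fold. The higher gene of the antibody library was Igfbp2, on 27 UMIs in 6 of 333 Inhba-detected cells against 0 UMIs in Pi16-detected cells. With each cell weighted equally its value was 1.39, no longer past 1.5-fold. In the IgG and Matrigel libraries 14 and 13 Inhba-detected cells had an Igfbp2 UMI. When detection was set after thinning to 1000 UMIs, the count in the Matrigel library was 3 in place of 6.

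**Figure D3:**
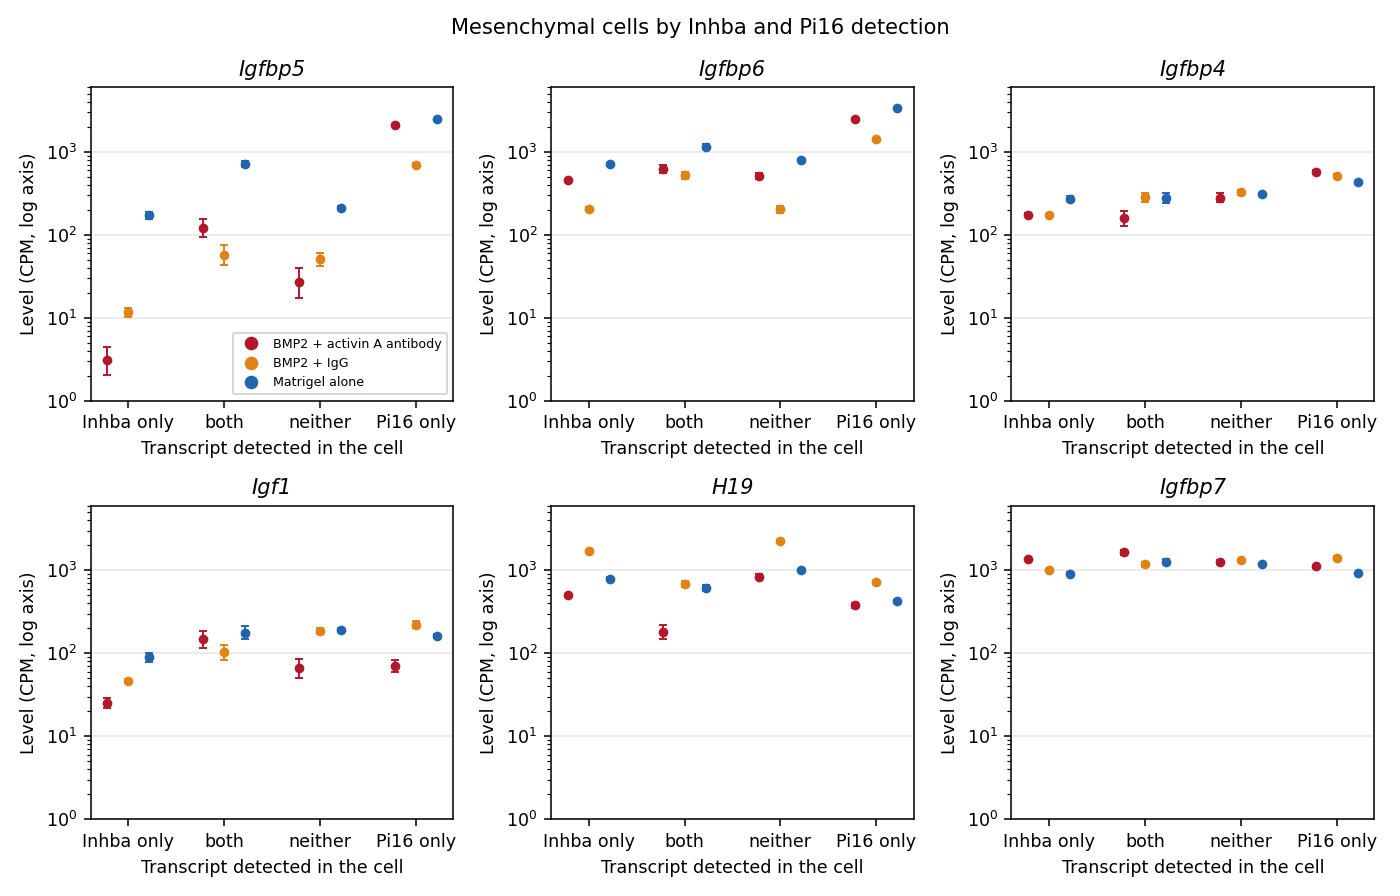
CPM (log axis) of 6 genes in mesenchymal cells with Inhba alone, both, neither or Pi16 alone detected, in the 3 libraries. Points are single libraries and bars exact Poisson 95% intervals. Igfbp5 was at 2115, 700 and 2474 CPM in Pi16-detected cells of the antibody, IgG and Matrigel libraries.

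The differences between libraries were partly kept inside the classes, but the classes rest on detection and were not alike across libraries. Pi16 itself was at 2252, 1073 and 2003 CPM in Pi16-detected cells of the antibody, IgG and Matrigel libraries. Inhba was at 1105, 828 and 137.5 CPM in Inhba-detected cells. The part of this in the ratios below was not tested. Within Pi16-detected cells, Igfbp5 was 3.02-fold (2.84 to 3.21) higher in the antibody than in the IgG library, and 3.53-fold lower in the IgG than in the Matrigel library. Igfbp6 was 1.75-fold (1.67 to 1.84) higher and 2.37-fold lower in the same comparisons. Within Inhba-detected cells Igfbp5 was 3.83-fold lower in the antibody than in the IgG library, which is opposite to Pi16-detected cells. The difference between the classes was not tested. For antibody over IgG, 2 of 9 genes were higher and 4 lower in Inhba-detected cells, against 7.94% and 14.0% of genes measured, and 2 were higher and 4 lower in Pi16-detected cells, against 11.0% and 19.5%. For IgG over Matrigel, 1 was higher and 5 lower in Inhba-detected cells, against 14.6% and 18.6%, and 3 were higher and 2 lower in Pi16-detected cells, against 11.5% and 16.1%. Antibody over Matrigel in Pi16-detected cells was 0.855 for Igfbp5 and 0.738 for Igfbp6, both within 1.5-fold. In Inhba-detected cells Igfbp5 was at 3.06 CPM in the antibody and 171.5 CPM in the Matrigel library. Igfbp6 was at 459 and 711 CPM there. For antibody over Matrigel the median log2 ratio of the 9 genes was -0.226 in Pi16-detected and -0.658 in Inhba-detected cells. Over all genes measured it was -0.128 and -0.130.

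Igf1 and Igfbp4 differed from these. In Pi16-detected cells, IgG over Matrigel was 1.39 for Igf1 and 1.20 for Igfbp4, whereas over all mesenchymal cells the ratios were 0.463 and 0.605. When the IgG cells were weighted to the subset mix of the Matrigel library, a comparison added after seeing the data, the ratios were 1.10 for Igf1 and 1.08 for Igfbp4. The same weighting gave 0.271 for Igfbp5, 0.389 for Igfbp6 and 0.684 for Igfbp2, the last no longer past 1.5-fold. Antibody cells weighted to the subset mix of the IgG library gave 2.41 for Igfbp5. For antibody over IgG, Igf1 was lower in both classes, at 0.542 in Inhba-detected and 0.314 in Pi16-detected cells.

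H19 was lower in the antibody than in the IgG library in each class, at 0.291 in Inhba-detected and 0.534 in Pi16-detected cells. Cells with at least 0.1% of UMIs from Col2a1 and Acan together numbered 58 with the antibody, 565 with IgG and 0 with Matrigel alone, which allows a share of up to 0.186%. H19 was at 1817 and 2820 CPM in these cells of the antibody and IgG libraries, 5.10-fold and 2.87-fold above the other mesenchymal cells. Igfbp3 was 6.17-fold and 2.75-fold higher there. Igfbp5, Igfbp6, Igfbp4 and Igfbp7 were all lower there in both libraries, with Igfbp6 at 0.184 and 0.330 of the level in other mesenchymal cells. Of the 9 genes, 3 were higher and 4 lower in the antibody library, against 17.1% and 19.4% of genes measured, and 2 higher and 5 lower in the IgG library, against 8.90% and 17.1%.

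The binding protein transcripts together summed to 2793 CPM in antibody, 1758 CPM in IgG and 4644 CPM in Matrigel mesenchymal cells. Igfbp7 took 47.6%, 61.4% and 22.4% of this sum, Igfbp6 28.9%, 17.2% and 41.4%, and Igfbp5 13.0%, 3.74% and 26.2%. In Inhba-detected cells Igfbp7 was the largest share in each library, at 66.8%, 68.3% and 42.1%. In Pi16-detected cells Igfbp5 and Igfbp6 together were over 50% of the sum in each library, at 33.3% and 39.0% in the antibody library, 16.9% and 34.2% with IgG and 34.1% and 46.2% in the Matrigel library. Per Igf1 UMI the mesenchymal cells held 68.3, 23.4 and 28.7 binding protein UMIs.

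**Figure D4:**
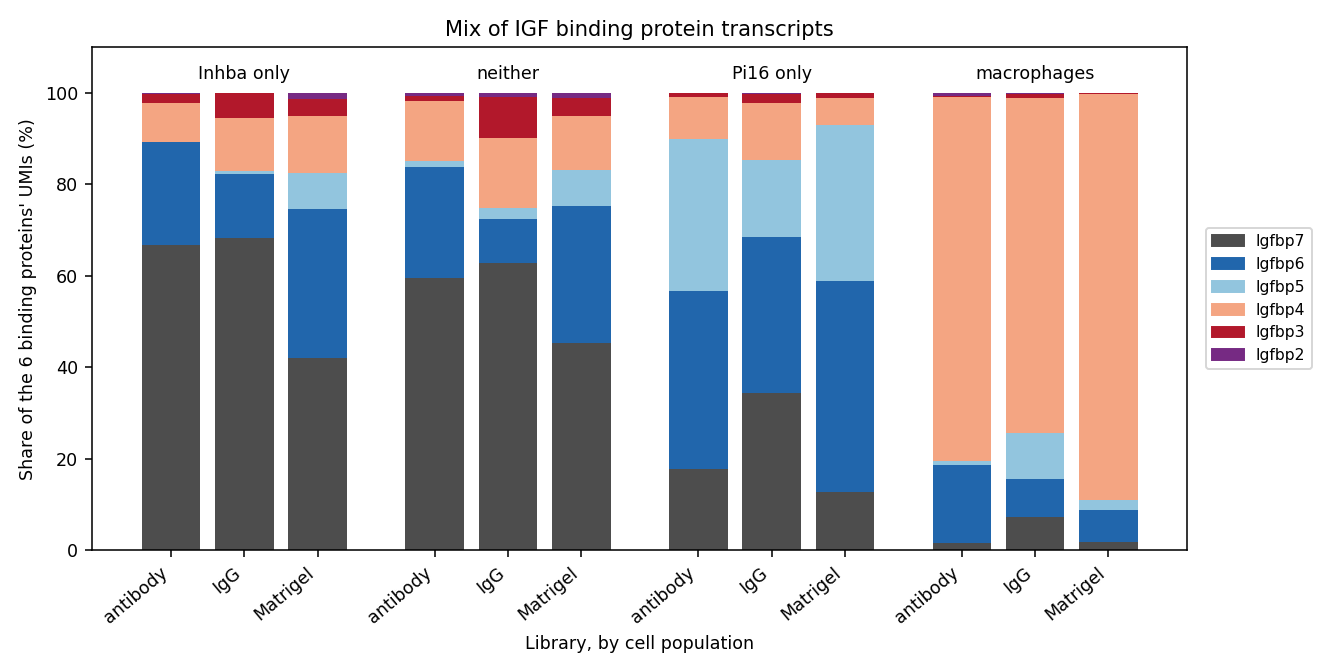
Share (%) of the UMIs of 6 binding protein genes held by each gene, in 3 mesenchymal classes and in macrophages of the 3 libraries. Bars are single libraries. Igfbp7 was the largest share in Inhba-detected cells, and Igfbp4 held 79.6%, 73.2% and 88.7% of the sum in macrophages of the antibody, IgG and Matrigel libraries.

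In macrophages Igf1 and Igfbp4 had the highest levels of the 10 genes in each library. Macrophages held 75.3%, 40.9% and 60.2% of all Igf1 UMIs of the kept cells in the antibody, IgG and Matrigel libraries. Mesenchymal cells held 22.3%, 52.9% and 37.1%, which was more than macrophages in the IgG library. Such shares depend on the size of the classes as well as on levels. Over all genes macrophages held 17668918, 13946142 and 19306008 UMIs, and mesenchymal cells 12750464, 26943485 and 18832469. Mesenchymal cells held 92.3%, 95.7% and 96.3% of H19 UMIs and 97.2%, 96.1% and 98.3% of Igfbp7 UMIs. Mesenchymal over macrophage ratios for Igfbp7 were 318, 56.6 and 104, and for Igfbp6 18.7, 13.6 and 49.5. Of the 9 genes, 7 were higher in mesenchymal cells in each library, against 34.1%, 36.0% and 34.1% of genes measured, and 1, 0 and 1 were lower, against 28.5%, 27.7% and 27.5%.

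Macrophage Igf1 stood at 99.7 CPM (95.1 to 104) in antibody cells, 112.0 CPM (106.5 to 118) in IgG cells and 256 CPM (249 to 263) in Matrigel cells. IgG over Matrigel was 0.438 (0.413 to 0.463) and antibody over IgG 0.890 (0.831 to 0.954). Igfbp4 stood at 203, 194 and 490.5 CPM, with ratios of 0.395 (0.378 to 0.412) for IgG over Matrigel and 1.05 (0.996 to 1.10) for antibody over IgG. Igf1r was at 35.4, 31.8 and 37.5 CPM and stayed within 1.5-fold in both comparisons. Against the level that free RNA from mesenchymal cells would give, scaled by the 3 collagens, the observed levels of these 3 genes were 36.3-fold to 772-fold higher.

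Igfbp7, Igfbp3, H19 and Igfbp6 lay nearer to that scale in macrophages. Igfbp7 was at 0.996, 1.68 and 1.53 times the free RNA scale in the antibody, IgG and Matrigel libraries, Igfbp3 at 3.52, 2.25 and 1.92 times, and H19 at 7.53, 2.95 and 4.97 times. For these 3 genes a macrophage level is not read as expression. Igfbp5 was at 2.32, 38.9 and 1.58 times the scale and Igfbp2 at 168, 14.4 and 1.001 times, with most UMIs behind the high values in single cells. Of 374 Igfbp5 UMIs in macrophages of the IgG library, 343 lay in 1 cell. Of the 28 and 9 Igfbp2 UMIs in the antibody and IgG libraries, all lay in 1 cell each. Igfbp6 was at 43.1, 22.2 and 38.9 CPM, or 16.9, 6.99 and 3.20 times the scale. In the Matrigel library this lay below the 4.97 times of H19, so the Igfbp6 level there is not read as expression either. The antibody over IgG ratio of Igfbp6 was 1.95 (1.70 to 2.23). Its IgG over Matrigel ratio, which carries that limit, was 0.570, or 0.711 after the free RNA level was taken off.

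For antibody over IgG, 2 of 9 genes were higher in macrophages, against 6.96% of 12944 genes, and 4 were lower, against 12.1%. For IgG over Matrigel 4 of 8 were higher, against 13.2% of 13149 genes, and 3 were lower, against 13.6%. The median log2 ratio of all measured genes in macrophages was -0.125 for antibody over IgG, and the ratios above are not corrected for it. The 4 lower genes for antibody over IgG and the 4 higher genes for IgG over Matrigel were H19, Igfbp3, Igfbp5 and Igfbp7, and Igfbp2 was 1 of the 2 higher genes for antibody over IgG. Their macrophage levels carry the limits given above, so nothing is read from these counts.

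Igf1 and Igfbp4 were concentrated in macrophages with a UMI of Lyve1 or Folr2, markers of resident macrophages. These numbered 1486 of 3040, 1094 of 3115 and 3172 of 5564 macrophages in the antibody, IgG and Matrigel libraries. Igf1 was at 152, 214 and 376 CPM in them and at 31.6, 43.2 and 77.8 CPM in the other macrophages, a ratio of 4.79, 4.96 and 4.84. Igfbp4 had ratios of 3.45, 2.84 and 4.22. Within Lyve1 or Folr2 macrophages, IgG over Matrigel was 0.570 (0.534 to 0.608) for Igf1 and 0.446 (0.424 to 0.470) for Igfbp4. In the other macrophages it was 0.664 for Igfbp4. Of 8 genes measured, 2 were higher and 4 lower in the antibody library, against 9.89% and 13.4% of genes, 2 higher and 3 lower in the IgG library, against 7.78% and 14.2%, and 3 higher and 0 lower in the Matrigel library, against 20.2% and 11.9%. Detection of Arg1 separated Igf1 less, with Arg1-detected over Arg1-negative ratios of 1.11, 0.781 and 0.563.

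**Figure D5:**
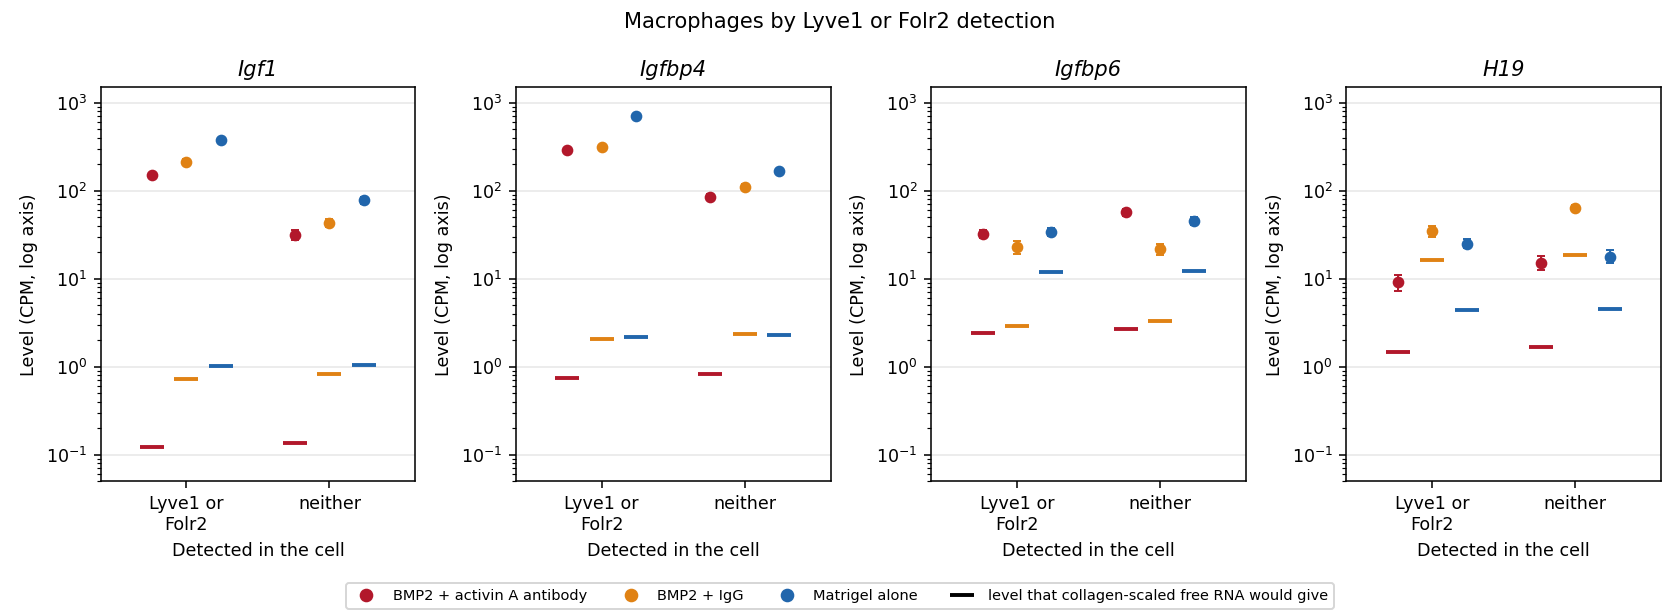
CPM (log axis) of 4 genes in macrophages with and without a Lyve1 or Folr2 UMI, in the 3 libraries. Points are single libraries, bars exact Poisson 95% intervals and dashes the level that collagen-scaled free RNA would give. Igf1 was at 152, 214 and 376 CPM in Lyve1 or Folr2 macrophages.

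Other genes of the IGF pathway were taken from lists, with 1.5-fold as above. Among 17 intracellular signalling genes in mesenchymal cells, 1 was higher and 3 lower for antibody over IgG, against 9.90% and 12.7% of all genes measured. For IgG over Matrigel 4 were higher and 1 lower, against 16.6% and 21.1%. The median log2 ratios of this list were -0.17 and -0.10. Grb14, an adaptor that binds and restrains the insulin receptor, was at 31.5, 118 and 3.19 CPM in the antibody, IgG and Matrigel libraries, so that IgG over Matrigel was 37.1 (28.8 to 48.8). Irs1, the adaptor that carries the receptor signal, was at 37.7, 81.7 and 50.02 CPM, with an antibody over IgG ratio of 0.461 (0.417 to 0.509). Of 6 genes for binding protein proteases and their inhibitors, 0 were higher and 2 lower for antibody over IgG, against the same 9.90% and 12.7%. For IgG over Matrigel 3 were higher and 0 lower, against 16.6% and 21.1%, and the medians were -0.24 and 0.47. Of these 3, Pappa2 had 40 and 17 UMIs in the IgG and Matrigel libraries. Its ratio was 1.645 with an interval (0.91 to 3.09) that included 1. Pappa, a protease that cleaves IGFBP4, was at 97.6, 109 and 35.6 CPM, an IgG over Matrigel ratio of 3.07 (2.82 to 3.34).

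Among 6 other binding proteins and receptors, 3 were measured for IgG over Matrigel in mesenchymal cells and 2 of these were lower, against 21.1% of all genes, while 2 were measured for antibody over IgG and neither passed 1.5-fold. The 2 lower genes were Igf2r and Igfals. Igfals had 8 UMIs with IgG and 12 with Matrigel alone, a ratio of 0.466 with an interval (0.165 to 1.24) that included 1. Igf2r, which takes up IGF2 for degradation, was at 62.5, 57.9 and 154 CPM in the antibody, IgG and Matrigel libraries. Ghr, the growth hormone receptor, was at 22.9, 24.4 and 54.0 CPM. In macrophages 3 of 6 growth hormone axis genes were higher and 1 lower for IgG over Matrigel, against 13.2% and 13.6% of all genes measured. For antibody over IgG 0 were higher and 3 lower, against 6.96% and 12.1%. The median log2 ratios were 1.095 and -0.496, beside -0.01 and -0.125 over all genes measured. Jak2, Cish and Socs2, a kinase and feedback regulators of cytokine signalling, were the 3 in both comparisons, with Jak2 at 76.6, 127 and 25.5 CPM. The lower gene for IgG over Matrigel was Ghr, 8.01-fold lower. Its macrophage levels were 0.623, 0.789 and 6.32 CPM, from 11, 11 and 122 UMIs in the antibody, IgG and Matrigel libraries. Of 3 genes for Igf2 mRNA-binding proteins, 2 were measured in mesenchymal cells, with 1 higher for antibody over IgG, against 9.90% of all genes, and 1 lower for IgG over Matrigel, against 21.1%.

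Of 12 imprinted genes in mesenchymal cells, 2 were higher and 5 lower for antibody over IgG, against 9.90% and 12.7% of all genes measured. For IgG over Matrigel 1 was higher and 5 lower, against 16.6% and 21.1%, and the medians were -0.10 and -0.50. Mest, a paternally expressed gene, was at 30.1, 133 and 14.1 CPM in the antibody, IgG and Matrigel libraries, with its highest level in the IgG library as for H19. Meg3, a maternally expressed non-coding RNA, was at 662, 358.5 and 1951 CPM, and Dlk1 of the same locus at 2.27, 1.86 and 127 CPM.

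The genes with the most similar pattern to each IGF gene were ranked by Pearson correlation of log2(CPM + 1) over 14 populations, namely 4 mesenchymal classes and macrophages in each library with at least 20 cells. These populations share libraries and depth, so the values are descriptions. They also join mesenchymal classes with macrophages, so genes that differ strongly between these cell types can rank near each other for that alone. The macrophage levels of Igfbp7, Igfbp3 and H19, not read as expression above, enter the values. The genes named are the top ranks among 8691 compared. Igfbp5 was nearest to Itih5 (0.970), Efhd1 (0.961) and Aldh1a1 (0.957), and Igfbp6 to Slc4a4 (0.981), Duox1 (0.980) and Fhl1 (0.979). Igf1 was nearest to Gas6 (0.967) and H19 to Mlec (0.985). For Igfbp7 the nearest were Snhg18, Col6a1 and Postn, each at 0.996. Col6a1 ran from 6.91 to 2085 CPM over the populations and Postn from 11.6 to 4228 CPM. Igfbp4 was nearest to C4b at 0.954.

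At the 1% collagen threshold, the 62, 161 and 26 mesenchymal cells from 1% to 2% had Igfbp6 at 519, 138 and 349 CPM in the antibody, IgG and Matrigel libraries. The 21, 68 and 46 cells from 0.5% to 1% had 342, 52.7 and 137 CPM. Not every gene fell below the threshold. From 1% to 2% Igfbp4 was at 94.4, 40.3 and 349 CPM, and from 0.5% to 1% at 39.4, 92.3 and 862 CPM. H19 was at 413.5, 2510 and 396 CPM against 374, 2589 and 27.4 CPM. Median depth was 27611.5, 18286 and 2856 UMIs against 3246, 893.5 and 940 UMIs.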

How the data were processed

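The deposited matrices hold raw UMI counts, unnormalized, per the file headers. Cell Ranger 3.0.2 and the build mm10 are listed in the submitters' processing notes. Annotation release and cell-calling settings: not given in the sources used here. Cells below 300 genes or 500 UMIs, or above 15% mitochondrial UMIs, were dropped, which removed 146, 107 and 26 barcodes of the antibody, IgG and Matrigel libraries. Scrublet, through scanpy 1.11.5, marked 4, 3 and 2 doublets by its automatic threshold, under 0.5%, so the top-scoring cells were taken out at 0.8% per 1000 cells (285, 284 and 681), leaving 5682, 5674 and 8542. UMIs were summed per class in Python 3.11.15 with scipy 1.17.1. Intervals were exact: conditional binomial for ratios, Poisson for levels, Clopper-Pearson for shares. Bounds used 3 counts per class and library. The calculation of ratios and their intervals was checked on simulated counts with known fold changes. With 1 library per group no p-value was computed.

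The 10 genes were named in each comparison. From the pathway lists, a gene past 1.5-fold whose higher level reached 20 CPM was eligible, at most 4 per list and comparison. Members and lists were chosen with earlier results of these data known. Alternatives covered doublets, quality filters, collagen and marker thresholds, scaling, cell weighting, cells with most UMIs and thinning. For the cells with most UMIs, a gene's UMIs in 10 cells of each class were left out. The totals still held those cells. The same subset mix, macrophages without UMIs of other cell types and macrophages without Lyve1 or Folr2 were added after seeing the data.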

Additional observations from a re-analysis of the deposited data

Results flagged for a closer look

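Several ratios ran in opposite directions in different cells of the same libraries, and none of these differences was tested. Igfbp5 was at an antibody over IgG ratio of 5.52 in mesenchymal cells and 0.0992 in macrophages, and at an IgG over Matrigel ratio of 0.0539 in mesenchymal cells and 2.20 in macrophages. Of the 374 macrophage UMIs of Igfbp5 in the IgG library, 343 lay in 1 cell. Within mesenchymal cells, the antibody over IgG ratio of Igfbp5 was 0.261 in Inhba-detected and 3.02 in Pi16-detected cells. Igfbp2 had an antibody over IgG ratio of 2.34 in Inhba-detected cells and of at most 0.191 in Pi16-detected cells, where the antibody library had 0 UMIs and the IgG library 14. Its IgG over Matrigel ratio was 0.0418 in Inhba-detected and 2.03 in Pi16-detected cells. These Igfbp2 ratios rest on few cells. Inhba-detected cells had 27 UMIs in 6 antibody cells, 27 in 14 IgG cells and 86 in 13 Matrigel cells. In the Matrigel library 10 cells held 96.5% of those UMIs. Pi16-detected cells had 14 UMIs in 3 IgG cells and 30 in 7 Matrigel cells.

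Cells outside the mesenchymal, macrophage and lymphocyte classes also carried these genes. In the IgG library H19 was at 539 CPM in such cells, against 37.6 CPM in the Matrigel library, Igfbp2 at 20.8 CPM against 0 CPM, Igfbp3 at 131 CPM against 3.61 CPM, and Igfbp7 at 364.5 CPM against 68.5 CPM. In the IgG library 49 of these 866 cells lay just under the collagen threshold, at 0.5% to 1% of UMIs, and held 72.3% of their H19 UMIs and 33.2% of their Igfbp3 UMIs. The 3 chondrocyte markers summed to 882 CPM in such cells of the IgG library and 0 CPM in those of the Matrigel library. Cells with an endothelial marker held 62.7% of the Igfbp3 UMIs and 59.4% of the Igfbp7 UMIs of these cells in the IgG library. Igfbp5 was at 176.5 CPM in the antibody library against 30.4 CPM in the Matrigel library, and 11 cells with an epithelial marker held 84.3% of its UMIs there.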

How the results depend on the processing

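Of 779 ratios recomputed under 19 settings, 755 kept their direction, and of 520 ratios past 1.5-fold, 499 stayed past it and 9 reversed. These totals count the same gene and comparison again under each setting. The settings that required more UMIs, or 5 CPM in both libraries, only left genes out. The ratios they kept could not change, and the genes they left out are not counted as lost. With the same subset mix, IgG over Matrigel in mesenchymal cells became 1.10 for Igf1 and 1.08 for Igfbp4, and 3 genes in place of 6 were past 1.5-fold. In macrophages, IgG over Matrigel for Igfbp3 became 0.928 at collagen under 0.2%, and 0.881 without its UMIs in the 10 cells with most of them. For Igfbp5 it became 0.120 with Csf1r and Adgre1 both detected, 0.561 with each cell weighted equally and 0.209 without UMIs of other cell types. Without the Igfbp5 UMIs in the 10 cells with most of them it became 0.130. Antibody over IgG for Igfbp5 became 1.31 with Csf1r and Adgre1 both detected. With both libraries required at 5 CPM, the count was 2 in place of 6 for antibody over IgG in macrophages and 3 in place of 5 for Inhba-detected over Pi16-detected cells of the antibody library. With detection after thinning it was 3 in place of 6 for Inhba-detected over Pi16-detected cells of the Matrigel library. The cause was not tested. No paired analysis was possible because each group has 1 library. Counts limit Igf2 and Igfbp2 most.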
